A study of Mus musculus with 479 samples.

Results

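Wild-type lung was compared with wild-type heart, kidney and liver of the same mouse line, to list the transcripts that set lung apart in the same way in both lines. Membership came from the tissue and genotype labels alone, which name 60 wild-type lung libraries among the 479 libraries of the series, 30 from the Dchs1 line and 30 from the Fat4 line. The comparison libraries were 180 wild-type hearts, kidneys and livers, 30 of each tissue in each line. Dchs1 and Fat4 encode giant cadherins that bind one another between neighbouring cells. Each line was made with the VelociGene technology and kept on C57BL/6NTac, and the genotypes read Dchs1.WT and Fat4.WT. The series' design text calls the wild-type controls littermates of heterozygous mice. No treatment, age, sex or litter number was labelled, and nothing in the labels tells whether each library came from a separate animal, so the p-values measure only the spread between these libraries. Nothing in them tells which piece of lung was taken.

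The lung exchanges gas across a thin wall made of flat alveolar type 1 cells, a shared basement membrane and capillary endothelium. Cuboidal alveolar type 2 cells secrete surfactant, a film of phospholipid and surfactant proteins that lowers surface tension, and they renew the type 1 cells. The conducting airways are lined by club cells, which secrete Scgb1a1 and its relatives, and by ciliated cells, which carry mucus upwards. Alveolar macrophages live on the air side, lymphocytes and neutrophils are held in the vessels and walls, and in mice the pulmonary veins carry a sleeve of heart muscle. In whole tissue, a lower level can mean fewer cells of a type or less RNA per cell, and these cannot be told apart.

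Lung libraries held 11086182 to 19485877 counts in the Dchs1 line and 13757671 to 27648661 in the Fat4 line. Mitochondrial transcripts took a smaller share of TPM (a gene's share of the library after division by transcript length) in lung, with medians of 9.01% and 11.4%, than in heart, kidney and liver, whose runs of library numbers had medians of 15.2% to 62.8%. Library numbers of the Dchs1 line fell into a low run of 24 lungs and a high run of 6, and each tissue had its own stretch of numbers. In 4 Dchs1 lungs, 1 low-numbered and 3 high-numbered, the correlation with the other lungs was more than 5 median absolute deviations below the median, as in 4 Dchs1 and 6 Fat4 libraries of heart and liver. Results were also computed without these libraries and within each run. No lung pair had counts as alike as sampling noise allows (lowest chi-square per gene 6.23). Xist was below Ddx3y in all 240 libraries.

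All 4 marker genes of lung were high in every one of the 60 lungs, which fits the label. Sftpc (gene ID 20389, chromosome 14, 70520941 to 70524081, GRCm38.p6), the type 2 cell surfactant protein, ranged from 13680 through a median of 24370 to 38090 TPM in Dchs1 lungs and from 16200 through 25000 to 28930 TPM in Fat4 lungs. Scgb1a1 (22287, chromosome 19, 9083642 to 9087956), the club cell secretoglobin, had 55470, 116700 and 190600 TPM as its lowest, median and highest level in Dchs1 lungs and 69460, 104500 and 136300 TPM in Fat4 lungs. This 1 gene thus made up 5.55% to 19.1% of all TPM in a lung library. Ager (11596, chromosome 17, 34597460 to 34600937), a receptor on the type 1 cell, had 1086, 1967 and 2888 TPM in Dchs1 lungs and 1582, 1962 and 2304 TPM in Fat4 lungs. Foxf1 (15227, chromosome 8, 121084386 to 121088154), a forkhead factor of lung mesenchyme and endothelium, had 56.9, 129 and 209 TPM in Dchs1 lungs and 89.2, 163 and 243 TPM in Fat4 lungs. No lung overlapped a library of another tissue for any of the 4. The highest Ager level elsewhere was 2.37 TPM, in a Dchs1 kidney, and the highest Foxf1 level was 1.58 TPM, in a Fat4 liver.

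**Figure D1:**
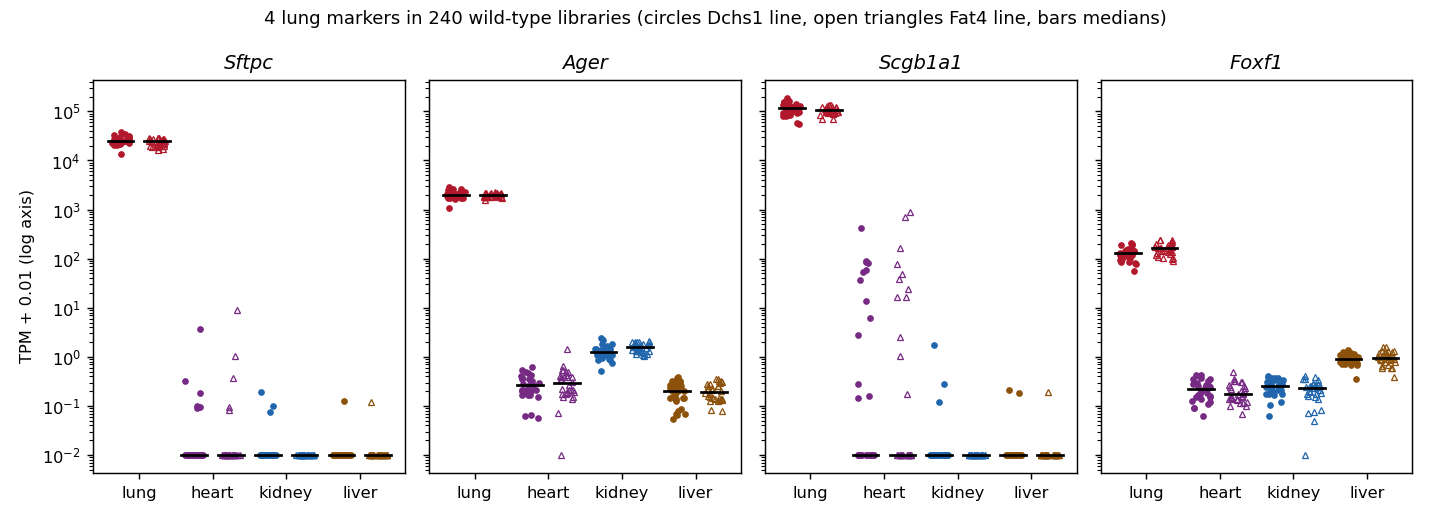
TPM of Sftpc, Ager, Scgb1a1 and Foxf1 on a log axis (0.01 added), 1 point per wild-type library, filled circles for the Dchs1 line and open triangles for the Fat4 line, with bars at the medians. All 60 lungs lie above every other library in all 4 panels, and a few hearts rise above the rest for Scgb1a1.

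Lung transcripts did occur in heart libraries. Scgb1a1 was above 1 TPM in 10 of 30 Dchs1 and 11 of 30 Fat4 hearts, and above 100 TPM in 1 and 3 of them, up to 424 and 903 TPM. Sftpc stayed under 10 TPM in the same tissue, with a highest level of 3.77 and 9.18 TPM. The origin of these transcripts in heart libraries was not tested. Lung against heart in the Fat4 line still gave a log2 difference of 9.02 ± 0.656 (SE) for Scgb1a1, with an adjusted p of 2.25e-22 from edgeR's test against a 2-fold difference with Benjamini-Hochberg adjustment.

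Levels are given below in TPM, and differences as log2 of lung over a tissue from edgeR on counts after TMM scaling, which assumes that most genes do not differ. The 2 scales part ways here, and the cause was not tested. With library totals in place of TMM, the median log2 difference over all genes moved from 0.18, 0.04 and 0.13 to 1.38, 0.87 and 1.53 against heart, kidney and liver in the Dchs1 line, and from 0.15, 0.03 and 0.09 to 1.39, 0.78 and 1.48 in the Fat4 line. A gene with a small TMM difference therefore has a larger share of a lung library than of the other tissue's.

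Against the mean of the other 3 tissues, 7836 of 16075 genes were higher (48.7%) and 6625 lower (41.2%) in Dchs1 lungs, and 7779 (48.4%) and 6942 (43.2%) of 16081 in Fat4 lungs, by edgeR's quasi-likelihood test at an adjusted p under 0.05. In both lines at once, 46.2% of the 16011 genes tested in both were higher and 39.5% lower. Of the calls, 54.2% and 52.8% were higher with TMM, 87.1% and 86.5% with library totals, and 44.3% and 42.8% when the other tissues were pooled as 1 group. Since nearly every gene passed, groups of genes were counted by a stricter rule: lung over 2-fold higher, or over 2-fold lower, than heart, than kidney and than liver in both lines, each by edgeR's threshold test (called the 2-fold rule below). It held for 1808 genes (11.3%) in the higher and 675 (4.22%) in the lower direction. Every count of a list below stands beside these 2 shares, and no list was tested as a set. A count near them is not read as a result about its list. Without the libraries that stood apart it held for 1826 and 677 genes, of which 1784 and 656 were shared. For 4337 genes (27.1%) every lung library had a higher TPM than every other library of its line, and for 81 genes (0.506%) a lower one. These 2 counts are on the TPM scale and not comparable with those of the 2-fold rule. On log2(TPM + 1) the median difference over all genes was 0.85 to 1.34 against a single tissue. The same scale holds wherever lungs are said to lie above or below every other library.

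**Figure D2:**
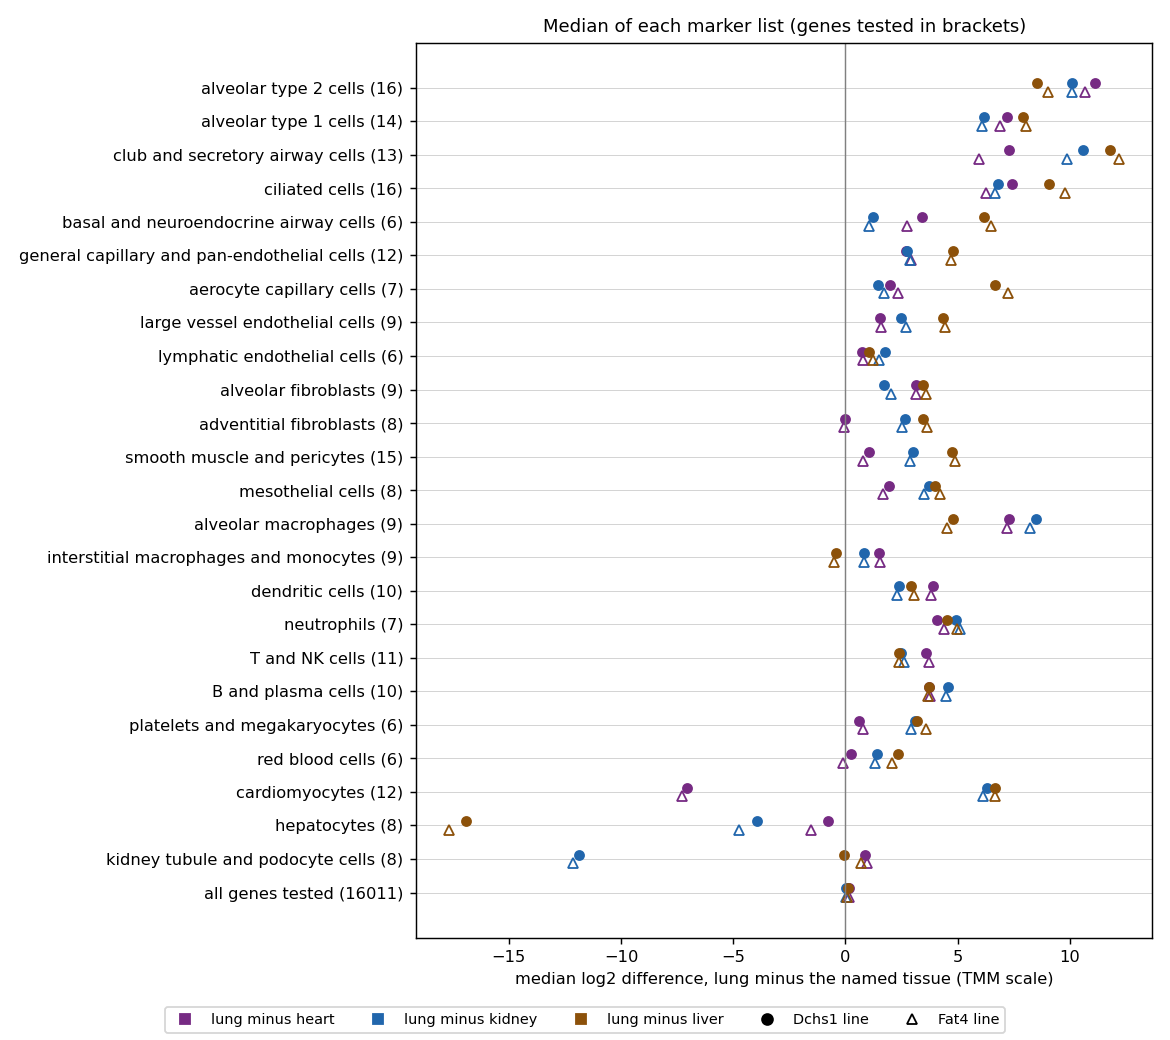
Median log2 difference of each marker list, lung minus heart, kidney or liver on the TMM scale, with circles for the Dchs1 line and triangles for the Fat4 line and the number of genes tested in brackets. The type 2 cell list lies at 8.53 or more against every tissue, adventitial fibroblasts and red blood cells lie near 0 against heart, and the markers of the other 3 organs fall far to the left against their own organ. Differences from a tissue in which a gene was at 0 everywhere, as for several secretory genes in kidney and liver, have no fixed size.

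Surfactant genes of type 2 cells were among the genes with the largest excess. Of 16 type 2 markers, 12 were higher by the 2-fold rule and none lower, and those 12 were above every other library in all 60 lungs. The list median was 11.14 and 8.53 against heart and liver for the Dchs1 line and 10.67 and 9.04 for the Fat4 line, beside 0.18 and 0.12 and 0.15 and 0.09 over all genes. Promoter sequences of 3 of these genes are shown because a lung factor's short motif occurs in them, 250 bases up to the annotated start, 5′ to 3′ along the gene's strand, from RefSeq on GRCm38.p6. Capitals mark CTCAAG, bound by NKX2-1, in Sftpb and Sftpa1, and TGTTTAC, bound by forkhead factors, in Lamp3. Sftpb lies at chr6:72304360-72304609 on the plus strand, with motifs 100 and 15 bases before the start. Sftpa1 lies at chr14:41131538-41131787 on the plus strand, with a motif 166 bases before the start. Lamp3 lies at chr16:19706366-19706615 on the minus strand, with a motif 92 bases before the start.
Sftpb: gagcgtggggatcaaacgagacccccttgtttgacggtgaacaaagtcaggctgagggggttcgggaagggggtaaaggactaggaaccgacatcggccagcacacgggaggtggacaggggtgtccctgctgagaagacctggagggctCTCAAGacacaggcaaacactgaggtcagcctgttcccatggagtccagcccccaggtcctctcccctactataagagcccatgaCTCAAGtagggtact
Sftpa1: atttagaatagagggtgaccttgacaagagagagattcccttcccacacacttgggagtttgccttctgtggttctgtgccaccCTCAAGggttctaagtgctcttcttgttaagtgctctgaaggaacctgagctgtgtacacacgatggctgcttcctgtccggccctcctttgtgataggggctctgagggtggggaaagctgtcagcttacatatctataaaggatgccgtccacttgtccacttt
Lamp3: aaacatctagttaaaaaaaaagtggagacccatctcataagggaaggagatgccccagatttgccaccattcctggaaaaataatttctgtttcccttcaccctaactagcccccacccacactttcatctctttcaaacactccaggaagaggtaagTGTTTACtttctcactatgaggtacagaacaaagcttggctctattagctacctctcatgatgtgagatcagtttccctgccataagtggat
On both strands, CTCAAG was found for 15.2% and TGTTTAC for 3.5% of the 27025 genes with a promoter window. A gene counted if any of its windows held the letters. A match of these letters thus describes the sequence and marks no site. The motifs do not overlap one another in the 3 windows.

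Sftpb, a small hydrophobic protein that spreads the surfactant film, had 1923, 3075 and 4032 TPM as its lowest, median and highest level in Dchs1 lungs and 2596, 3315 and 4344 TPM in Fat4 lungs. Sftpa1, a collectin of the surfactant, had 2164, 3264 and 4600 TPM and 2055, 3085 and 4042 TPM. Lamp3, a membrane protein of the lamellar bodies that store surfactant, had 134, 290 and 653 TPM and 169, 293 and 479 TPM. The 3 genes were nearly silent elsewhere, with Sftpb at no more than 0.654 TPM, Lamp3 at no more than 0.159 TPM and Sftpa1 at no more than 2.75 TPM, in a liver. Their smallest log2 differences were 14.32 ± 0.146 for Sftpb (Fat4 heart), 12.25 ± 0.128 for Lamp3 (Fat4 heart) and 9.91 ± 0.285 for Sftpa1 (Fat4 liver). The chemokine Cxcl15 had medians of 1268 and 1339 TPM in lung and was at most 0.608 TPM elsewhere, a smallest log2 difference of 13.42 ± 0.148.

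Type 2 markers that missed the rule were shared with 1 other organ each. Napsa, the protease that trims pro-surfactant proteins, had 182, 318 and 476 TPM in Dchs1 lungs against 412, 885 and 1159 TPM in kidneys of that line, where these levels overlap, and its log2 difference from kidney was -2.48 and -2.59. S100g, a calcium-binding protein, had medians of 136 and 122 TPM in lung and 529 and 561 TPM in kidney. Complement gene Hc had 236 TPM in lung of both lines and 271 and 291 TPM in liver. Abca3, the lipid transporter of lamellar bodies, had a higher TPM in lung (151 and 158) than in kidney (72.1 and 84.8), yet its log2 difference on the TMM scale was -0.11 and -0.12.

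Of 12 genes for making and moving surfactant lipid, 3 were higher and 1 lower by the 2-fold rule, beside 11.3% and 4.22% of all genes. The higher ones were Slc34a2, the type 2 cell's phosphate transporter (medians 738 and 862 TPM in lung, at most 5.67 TPM elsewhere), Lpcat1, which makes dipalmitoyl phosphatidylcholine (154 and 148 TPM, smallest log2 difference 4.22), and Elovl1, a fatty acid elongase (371 and 357 TPM, 1.62). Chpt1, which completes phosphatidylcholine from diacylglycerol, was the lower one: 24.9, 73.9 and 89.4 TPM in Dchs1 lungs against 96.2, 126 and 141 TPM in the closest tissue, heart, and 62.0, 87.8 and 102 against 109, 121 and 136 TPM in the Fat4 line. Every lung was below every other library for Chpt1, while the call was lost with library totals. Scd1, the stearoyl desaturase, had 470 and 493 TPM in lung, 48 and 44 TPM in kidney and 600 and 922 TPM in liver. Fasn, the fatty acid synthase, was above every other library in all lungs (59.2 and 77.8 TPM), with a smallest log2 difference of 0.91.

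Among type 1 cell markers, 11 of 14 were higher by the 2-fold rule and none lower. Cldn18, a tight junction claudin of the alveolus, had 302, 423 and 616 TPM in Dchs1 lungs and 358, 425 and 548 TPM in Fat4 lungs, and was at most 0.626 TPM elsewhere. Aqp5, the apical water channel, had 138, 230 and 275 TPM and 207, 247 and 277 TPM, against at most 2.0 TPM elsewhere. Rtkn2 had medians of 111 and 108 TPM and was under 0.2 TPM in all other libraries. The markers Igfbp2, Col4a3 and Clic5 missed the rule because of liver, kidney and heart. Igfbp2, a binding protein of insulin-like growth factors, had 53.5, 116 and 206 TPM in Dchs1 lungs and 244, 374 and 733 TPM in livers, which do not overlap. Hopx, a homeodomain protein of type 1 cells and of heart muscle, had medians of 1542 and 1593 TPM in lung against 115 and 110 TPM in heart, and was called.

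Airway cell genes formed the next lists. Of 13 secretory markers, 10 were higher by the 2-fold rule and none lower, and of 16 ciliated markers, 15 were higher. The secretory list had a median of 7.27 and 5.96 against heart, and the ciliated list 7.41 and 6.27. Cbr2, a carbonyl reductase of club cells, had 2770, 6407 and 8801 TPM in Dchs1 lungs and 4343, 5719 and 7429 TPM in Fat4 lungs, against at most 101 TPM elsewhere, in a Fat4 heart. The secretoglobin Scgb3a2 had medians of 3233 and 2728 TPM. Bpifa1, an antimicrobial airway protein, varied most: its lungs ran from 284 to 2415 TPM and from 72.1 to 1824 TPM, the highest hearts reached 315 and 744 TPM, and the smallest log2 difference was 2.28 ± 0.504 (Fat4 heart, adjusted p 0.00287). Lungs and hearts thus overlapped for Bpifa1. Foxj1, the master regulator of motile cilia, had 57.3, 72.7 and 96.7 TPM and 51.7, 70.1 and 83.4 TPM in lung, and at most 1.68 TPM elsewhere. Ccdc153 (164 and 128 TPM), Dynlrb2 (160 and 130 TPM) and Tmem212 (83.1 and 74.9 TPM), parts or partners of the moving axoneme, were above every other library in all lungs.

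The secretory markers that missed the rule were again shared. Pigr, which carries IgA across epithelia, had medians of 70 and 46.5 TPM in lung, 49.6 and 55.2 TPM in kidney and 510 and 563 TPM in liver. Cyp2f2, a cytochrome of club cells, had 3762 and 3461 TPM in lung but 901 and 874 TPM in liver, a log2 difference of 0.60 and 0.51. Cckar, a cholecystokinin receptor, had 71.4 and 65.4 TPM in lung and 22.3 and 28.3 TPM in kidney. Markers of basal cells, which line the trachea and large bronchi, were scarce: Krt5 had medians of 0.69 and 0.541 TPM, and Trp63 had 0.518 and 0.484 TPM. Neuroendocrine genes were scarce too, but 3 of the 6 genes of this list that were tested out of 8 were higher by the rule, among them Resp18 (2.86 and 2.36 TPM) and Calca (4.3 and 4.43 TPM). Genes this scarce could enter the test through lung alone, so this count is no evidence about the list.

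Transcription factors known from lung development were higher in part. Of 25, 11 were higher by the 2-fold rule, none lower, and 18 were above every other library in all lungs. Nkx2-1, the homeodomain factor of lung epithelium, had 75.1, 123 and 155 TPM in Dchs1 lungs and 108, 155 and 188 TPM in Fat4 lungs, against at most 3.44 TPM elsewhere and a smallest log2 difference of 5.92 ± 0.131. Tbx4, a T-box factor of lung mesenchyme, had 13.9, 41 and 72.5 TPM and 34.7, 52.6 and 78.9 TPM, with no library above 0.287 TPM elsewhere. Sox2, a factor of conducting airways, had medians of 18.2 and 19.4 TPM. Foxa2 and Cebpa, which epithelia of lung and liver share, had log2 differences from liver of -0.09 and -0.15 for Foxa2 and -2.26 and -2.04 for Cebpa. Sox9, a factor of the growing bud tips, was low in all tissues (0.542 and 0.517 TPM in lung, 2.53 and 3.04 TPM in liver).

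Transcripts of signals that shape the branching lung were present in these lungs, whose age was not labelled. Of 14 branching genes, 6 were higher by the 2-fold rule and none lower, beside 11.3% and 4.22% of all genes. The ligands Shh (medians 10.2 and 10.8 TPM), Fgf7 (20 and 21.2 TPM) and Fgf10 (6.4 and 8.93 TPM) were called, as were the epithelial receptor Fgfr2, with a smallest log2 difference of 1.33 ± 0.0732, and the hedgehog-binding protein Hhip (2.40). Every lung exceeded every other library for these 5 genes. Wnt7b and the antagonist Sostdc1 were shared with kidney, where Sostdc1 had 20.7 and 27.4 TPM against 0.178 and 0.164 TPM in lung.

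Ion and water channels of the airway surface included 6 of 13 genes higher by the 2-fold rule. The sodium channel subunits Scnn1a, Scnn1b and Scnn1g were all called, Scnn1b with 83.4, 118 and 142 TPM in Dchs1 lungs and 87.2, 111 and 125 TPM in Fat4 lungs, against at most 14.9 TPM in kidney (log2 difference 2.28 ± 0.0476, Fat4 line). Slc26a9, an anion channel, had medians of 24.7 and 23.8 TPM and at most 0.0705 TPM elsewhere. Aqp3, a basolateral water channel, had 1.93 and 1.64 TPM in lung against 39.9 and 49.1 TPM in kidney. None of the 13 was lower in lung than all 3 tissues by the rule.

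Secreted defence genes were higher in 10 of 11 tested by the 2-fold rule, and in 7 with DESeq2. For 5 of them every lung was above every other library. Of this list 1 more gene was too low to test, and genes scarce outside lung could enter the test through lung alone. Lyz2, the macrophage and type 2 cell lysozyme, had 4790, 7809 and 9854 TPM in Dchs1 lungs and 4089, 7329 and 9157 TPM in Fat4 lungs, with a smallest log2 difference of 5.5 ± 0.0918. Lyz1 followed at 1075 and 1185 TPM, and the collectin Sftpd at 1789 and 1612 TPM. Lcn2, which binds bacterial siderophores, passed narrowly (1.55 ± 0.343 against Dchs1 liver, adjusted p 0.0278), where 1 liver library stood at 964 TPM, and the call was lost without the libraries that stood apart.

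Endothelial genes were counted in 4 lists, beside the 11.3% of all genes that were higher. Of 12 general capillary and pan-endothelial markers, 8 were higher by the 2-fold rule, as were 4 of 7 markers of aerocytes, the wide capillary cells of the alveolus, 5 of 9 large vessel markers and 1 of 6 lymphatic markers. Tmem100, a BMP-dependent capillary gene, had 249, 519 and 805 TPM in Dchs1 lungs and 401, 558 and 738 TPM in Fat4 lungs, against medians of 12.5 and 13.1 TPM in heart and a smallest log2 difference of 3.53 ± 0.106. Calcrl and Ramp2, which together form the adrenomedullin receptor, had medians of 427 and 479 TPM and of 603 and 653 TPM. In 1 Dchs1 lung Calcrl was at 41 TPM, still above every other library. Prx, a marker of aerocytes, had medians of 91.7 and 109 TPM and at most 1.39 TPM elsewhere. Slc6a2, the noradrenaline transporter of lung endothelium, had 33.6 and 34.2 TPM and at most 0.182 TPM elsewhere.

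Of the other vessel genes, Gpihbp1 was close to heart and Plvap to kidney on the TMM scale. Gpihbp1, which anchors lipoprotein lipase, had a log2 difference from heart of 0.21 and 0.09, and Plvap, of fenestrated endothelium, one from kidney of -0.35 and -0.26, although the lung medians were 239 and 272 TPM against 139 and 155 TPM. Lyve1, the hyaluronan receptor, was the 1 lymphatic marker called higher, with 280 and 321 TPM and a smallest log2 difference of 2.22 ± 0.119. Prox1, the lymphatic master regulator and also a hepatocyte and heart gene, was called lower, at 0.82 and 0.489 TPM, with a difference from Dchs1 kidney of -1.20 ± 0.126 (adjusted p 0.0395). That call was lost with DESeq2, with DESeq2's size factors, with library totals, without the libraries that stood apart and with only low-numbered Dchs1 libraries.

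Genes of vessel tone and growth were higher in 10 of 17, with a list median of 1.44, 1.88 and 3.79 against heart, kidney and liver for the Dchs1 line and 1.73, 2.04 and 3.64 for the Fat4 line. Ace, the angiotensin-converting enzyme, had 164, 306 and 684 TPM and 181, 382 and 634 TPM in lung against at most 85.3 TPM in kidney. Acvrl1, the endothelial BMP receptor, had medians of 213 and 249 TPM. Nos3, the endothelial nitric oxide synthase, had 9.27 and 9.12 TPM in lung and 8.12 and 7.65 TPM in heart, and a TMM difference of -1.37 and -1.34. Sod3, an extracellular antioxidant, had its highest medians in kidney (238 and 268 TPM).

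Mesenchymal lists split by type. By the 2-fold rule 4 of 9 alveolar fibroblast, 7 of 15 smooth muscle and pericyte, 4 of 8 mesothelial and 0 of 8 adventitial fibroblast markers were higher, and none was lower. Mfap4, an elastin-associated glycoprotein, had 210, 320 and 428 TPM in Dchs1 lungs and 253, 347 and 465 TPM in Fat4 lungs, against at most 20.6 TPM elsewhere. Inmt, an amine methyltransferase, had 2698 and 2769 TPM, and 505 and 543 TPM in kidney. Cnn1 and Actg2, contractile proteins of smooth muscle, had medians of 98.1 and 90.6 TPM and of 50.9 and 50 TPM, far above heart. Des and Lgr6 were higher in heart, Des at 786 and 759 TPM against 146 and 154 TPM in lung. The mesothelial keratin Krt19 had 272 and 236 TPM, while Wt1 was higher in kidney. For adventitial fibroblasts the list median against heart was 0.00 and -0.07 with TMM and 1.20 and 1.18 with library totals, so its direction depends on the scaling. The collagens Col1a1 and Col3a1 had log2 differences from heart between 0.07 and 0.25.

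Elastic fibre genes, which give the lung its recoil, were higher in 6 of 12. Eln, elastin itself, had 84.2, 139 and 217 TPM and 110, 149 and 251 TPM in lung against at most 29.6 TPM in heart, a smallest log2 difference of 1.34 ± 0.0831. Mfap2 (61.4 and 64.6 TPM), Ltbp2 and the cross-linking enzyme Lox (52.9 and 75.7 TPM) were also called. Of 15 basement membrane genes 4 were higher, beside 11.3% of all genes. Among them were the laminin chains Lamb3 (31.2 and 35.3 TPM, smallest log2 difference 1.36) and Lama3 (20.5 and 20.8 TPM, 1.31) and the collagen chain Col4a6 (8.29 and 7.64 TPM, 1.44). Lamb2, a laminin chain that heart also makes, had 61.7 and 71.7 TPM in lung and 59.2 and 64.8 TPM in heart.

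Lymphocyte and neutrophil genes were higher almost throughout. Every tested B and plasma cell marker (10 of 10) and every tested neutrophil marker (7, with 3 more of the list too low to test) was higher by the 2-fold rule, as were 10 of 11 T and NK cell markers. A gene scarce outside lung could enter the test through lung alone, which raises the share of tested genes that are higher. The B cell list had medians of 3.73, 4.56 and 3.74 against heart, kidney and liver for the Dchs1 line and 3.79, 4.46 and 3.68 for the Fat4 line. Cd79a, the signalling chain of the B cell receptor, varied widely, with 4.95, 56.8 and 162 TPM in Dchs1 lungs and 22.4, 65.6 and 142 TPM in Fat4 lungs. S100a9, a neutrophil calcium-binding protein, had 155, 281 and 794 TPM and 123, 185 and 789 TPM, above every other library. Gzma, a granzyme of NK cells, had medians of 39 and 33.2 TPM, and Il7r, the interleukin 7 receptor, 7.62 and 8.59 TPM. Cd4 missed the rule (2.44 and 2.65 TPM, smallest log2 difference 1.01).

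Macrophages were counted in 2 lists. Of 9 alveolar macrophage markers, 5 were higher by the 2-fold rule: Ear1, Ear2, Chil3, Krt79 and Siglecf. Chil3, a chitinase-like protein, had 270, 769 and 1369 TPM in Dchs1 lungs and 336, 830 and 1251 TPM in Fat4 lungs, against at most 3.31 TPM elsewhere. Ear1, an eosinophil-type ribonuclease, had medians of 104 and 100.2 TPM and at most 0.417 TPM elsewhere. Of 9 interstitial macrophage and monocyte markers only the monocyte genes Ly6c2 and Ccr2 were called. The complement genes C1qa, C1qb and C1qc, made by tissue macrophages, had 36.1 to 44.7 TPM in Dchs1 lungs and 34.3 to 35.9 TPM in livers at the median. That list's median against liver was -0.40 and -0.53 with TMM and 1.01 and 0.87 with library totals, another direction set by the scaling. Of 10 dendritic cell markers 6 were higher, among them Ccl17, Ccl22 and Ccr7 of migrating cells, whereas Xcr1 of cross-presenting cells had more TPM in liver (2.78 and 3.65) than in lung (1.65 and 1.51).

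All 7 genes of MHC class II antigen presentation were higher by the rule, and all 7 exceeded every other library in every lung. The list median was 3.36, 1.92 and 2.66 against heart, kidney and liver for the Dchs1 line and 3.34, 1.85 and 2.72 for the Fat4 line. Cd74, the invariant chain, had 442, 949 and 1480 TPM and 814, 1014 and 1519 TPM in lung, and Ciita, the transactivator of the whole set, 5.22 and 5.63 TPM at the median. Chemokines were higher in 5 of 11, among them Cxcl15, Ccl6 and Ccl5, while Cxcl12 had its highest medians in liver (202 and 224 TPM).

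None of 6 red blood cell and none of 6 platelet markers was called in either direction. Hba-a1, an alpha globin, had 6877, 16000 and 36790 TPM in Dchs1 lungs and 1379, 3057 and 19140 TPM in hearts, which overlap. Its log2 difference from heart was 0.45 and 0.13. With library totals all 6 platelet genes passed. Reads of the near-identical globin genes may have been divided wrongly among them.

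Lung had less transcript of the enzymes that burn fat and run the respiratory chain. All 15 nuclear genes of the respiratory chain and 10 of 11 of fatty acid oxidation were lower by the 2-fold rule in both lines, and none was higher. The respiratory chain list had medians of -3.75, -2.22 and -2.29 against heart, kidney and liver for the Dchs1 line and -3.78, -2.39 and -2.13 for the Fat4 line. For fatty acid oxidation they were -3.81, -2.17 and -3.42 and -3.98, -2.39 and -3.37. With library totals the same medians were -2.55, -1.40 and -0.87 and -2.53, -1.64 and -0.72 for the respiratory chain, and 2 of 15 genes passed the rule. For fatty acid oxidation they were -2.60, -1.36 and -2.01 and -2.73, -1.64 and -1.97, with 6 genes past it. With limma on log2(TPM + 1), 0 of 15 and 5 of 11 passed. The direction of these medians held with TMM and with library totals, while most respiratory chain calls did not.

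**Figure D3:**
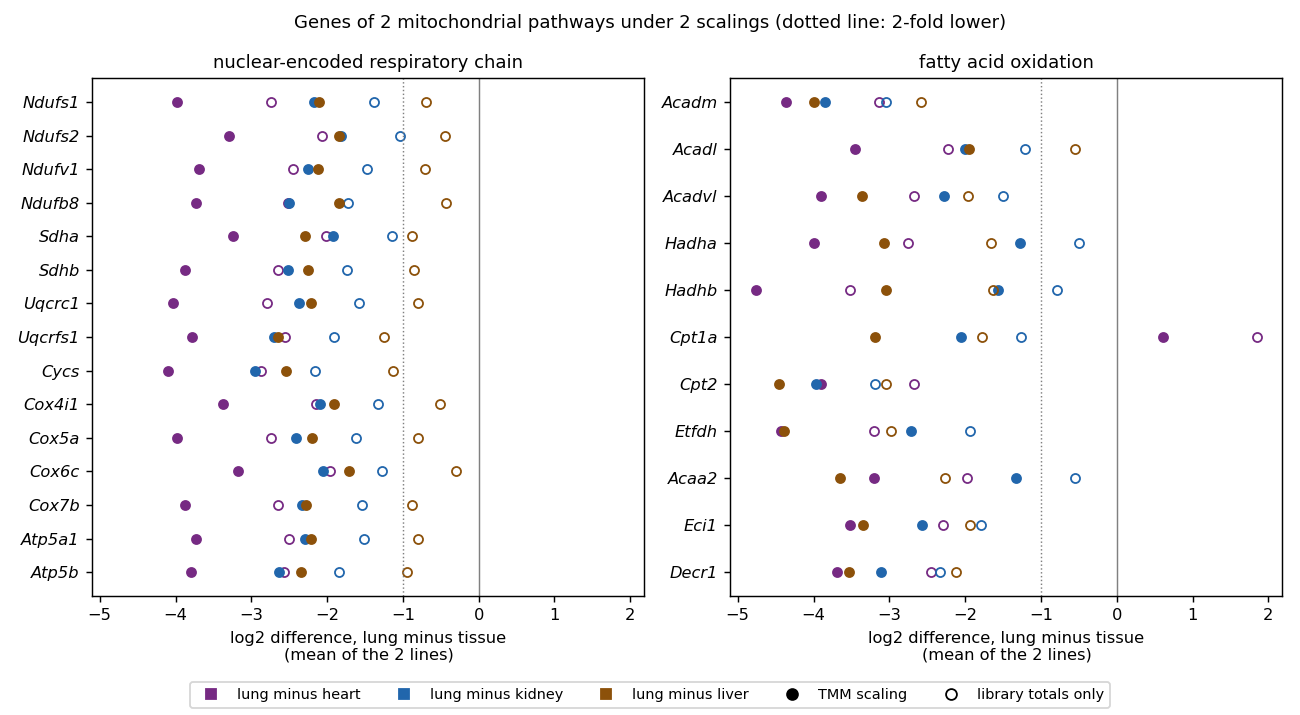
Log2 difference of lung minus heart, kidney and liver for 15 nuclear respiratory chain genes and 11 fatty acid oxidation genes, mean of both lines, filled with TMM scaling and open with library totals only, and a dotted line at 2-fold lower. Every point lies below 0 except those of Cpt1a against heart, and for the respiratory chain liver's open points lie nearest to 0.

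Cytochrome c, Cycs, had 44, 64.7 and 176 TPM in Dchs1 lungs and 59.9, 67.7 and 126 TPM in Fat4 lungs, against 102, 134 and 293 TPM and 101, 134 and 234 TPM in the closest tissue, liver. Lungs and livers overlapped at their edges, and the difference was -2.47 ± 0.0424 in the Fat4 line. Atp5b, the catalytic subunit of ATP synthase, had 277, 457 and 538 TPM and 408, 460 and 530 TPM against 408, 829 and 956 TPM and 525, 829 and 906 TPM in liver. Acadm, the medium-chain acyl-CoA dehydrogenase, had 51.6, 79.3 and 92.8 TPM and 71, 78.4 and 90.5 TPM in lung and was at least 274 TPM in every other library. Its least negative log2 difference was -3.82 ± 0.0433, and its call held with library totals. Acadvl, Cpt2, Etfdh and Decr1 were likewise lower in every lung than in every other library. Cpt1a, the liver-type carnitine palmitoyltransferase, was the exception, with 86.3 and 86.8 TPM in lung against 18 and 19.2 TPM in heart, which relies on the muscle form.

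The genes most reduced in lung among those well expressed in all 3 other tissues were mostly enzymes and carriers. Slc38a3, a glutamine transporter, was nearly silent, with 0, 0.102 and 0.332 TPM in Dchs1 lungs and 0, 0.15 and 0.404 TPM in Fat4 lungs, and its least negative log2 difference was -8.11 ± 0.122. Ephx2, the soluble epoxide hydrolase, had 2.54, 4.83 and 8.16 TPM and 2.59, 4.72 and 13.8 TPM in lung against 171, 198 and 244 TPM and 160, 209 and 247 TPM in heart (-6.89 ± 0.064). Slc47a1, an exporter of organic cations, had medians of 1.18 and 1.48 TPM (-5.58 ± 0.0641). Next came Bdh1 of ketone body metabolism (-4.71 ± 0.0741), Dgat2 of triglyceride synthesis (-4.15 ± 0.0626), Phyh of branched fatty acid breakdown (-4.08 ± 0.041) and Slc25a13, the aspartate carrier of mitochondria (-4.07 ± 0.0422). Acads, the short-chain acyl-CoA dehydrogenase, had 16.8 and 18.4 TPM in lung and at least 85.5 TPM at the median elsewhere. The groups did not overlap for Slc38a3, Ephx2, Slc47a1 or Phyh.

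The lungs held heart muscle transcripts, in unequal amounts. Myl7 and Myl4, myosin light chains typical of atrial muscle, and Sln, its sarcolipin, had lung medians of 33.8% and 33.1%, 25.5% and 27.5%, and 20.5% and 21.5% of the heart medians in the Dchs1 and Fat4 lines. Myh6, the alpha myosin heavy chain, was at 1.39% and 1.54%, Tnnt2 at 1.93% and 1.97% and Mybpc3 at 0.327% and 0.398%. Nppa, the atrial natriuretic peptide gene, was also low, at 1.84% and 2.15%. The genes typical of atrial muscle thus did not go together. Myl7 had 44.8, 99.5 and 199 TPM in Dchs1 lungs and 9.39, 104 and 193 TPM in Fat4 lungs, against 3.98, 294 and 415 TPM and 2.38, 315 and 502 TPM in hearts, so the groups overlapped. Myh6 had 19.8, 58.6 and 157 TPM and 4.21, 70.3 and 136 TPM in lung, and at least 3594 TPM in every heart. Of 9 skeletal muscle genes 7 had enough counts to test, 4 higher and 1 lower than the mean of the other tissues in both lines. Only 1 of them, the fast troponin Tnnt3 (10.01 and 8.67 TPM), was higher by the 2-fold rule, while the actin Acta1 had 0.265 and 0.385 TPM. Of 7 fat genes 6 were tested, 3 higher and 2 lower than the mean in both lines, and none passed the 2-fold rule. Over all genes tested, 46.2% were higher and 39.5% lower than the mean in both lines, so neither count is read as an excess. Adipoq, the fat cell hormone adiponectin, had 4.59, 9.23 and 18.7 TPM in Dchs1 lungs and 1.12, 8.45 and 42.6 TPM in Fat4 lungs, which overlap with hearts. The thymocyte, thyroid and oesophagus lists had 1 of 4, 2 of 5 and 0 of 5 genes with enough counts to test. Chad, a cartilage protein, was called (64 and 56 TPM), but Comp was not, and 4 of the 8 cartilage genes were too low to test. Of the 8 hepatocyte markers, Ttr and Apoa2 were lower by the rule.

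Fat4 and Dchs1, the cadherin genes that name the lines, were weakly expressed in wild-type lung. Fat4 had 0.891, 3.3 and 6.24 TPM in Dchs1-line lungs and 1.43, 3.21 and 4.77 TPM in Fat4-line lungs, and 0.906, 1.39 and 1.78 TPM in Dchs1-line hearts. Dchs1 had 1.05, 2.76 and 6.11 TPM and 1.73, 4.01 and 6.59 TPM. Both overlap with heart. The 6 Fat, Dachsous and Fjx1 genes tested had a mean log2(TPM + 1) of 1.99 and 2.02 at the median of Dchs1 and Fat4 lungs. Of these genes, only Fat2 and Fat3 were higher by the 2-fold rule, at under 1 TPM in lung at the median and at most 0.107 TPM elsewhere. Both could have entered the test through lung alone. Of 19 Hippo pathway genes, which relay such contacts to growth, the kinase Stk4 (54.1 and 49.3 TPM, 1.26 ± 0.0345) and the DNA-binding factor Tead4 (10.4 and 9.44 TPM, 1.61 ± 0.0692) were higher, a share no larger than the 11.3% of all genes. Yap1 had log2 differences from heart of -0.78 and -0.62, which with 52 and 60 TPM in lung and 28.4 and 30.1 TPM in heart is a case where the 2 scales differ in sign. Ankrd1, a YAP target that is abundant in heart muscle, had 868 and 1010 TPM in heart and 38.5 and 33.2 TPM in lung. Immediate early genes, which respond quickly to many signals, were higher in 4 of 10, beside 11.3% of all genes. That count was 3 with DESeq2 and 5 with DESeq2's size factors in edgeR. Fos had 19.8, 35.2 and 174 TPM and 19, 39.5 and 168 TPM in lung.

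The lung pattern was compared between the lines. Of 16011 genes tested in both, 13735 were called the same way against the mean of the other tissues and 125 in opposite ways. A test of the line by tissue interaction against a 2-fold difference called 2 of 16464 genes (0.0121%), Xkrx and Gm10052. By a test of no difference between the lines 2873 genes passed. Lrrc6, needed to assemble dynein arms, was 8.12 above the mean of the other tissues for the Dchs1 line and 6.88 for the Fat4 line, a difference of -1.30 ± 0.34 that did not pass the 2-fold test.

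**Figure D4:**
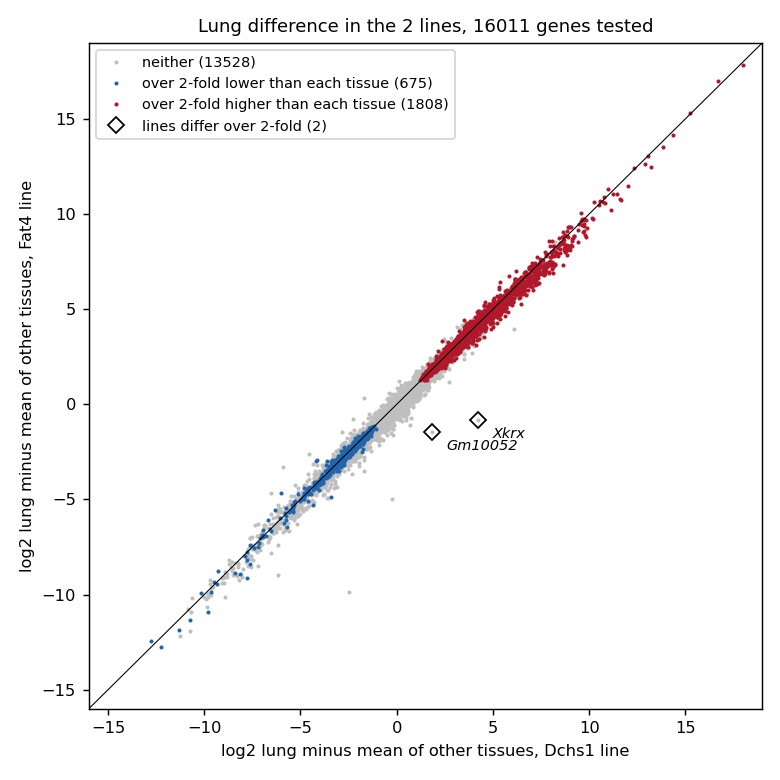
Log2 difference of lung from the mean of heart, kidney and liver in the Dchs1 line (x axis) and the Fat4 line (y axis), 1 point per gene, with the diagonal drawn. The 1808 genes over 2-fold higher and the 675 over 2-fold lower than each tissue lie along the diagonal, and the 2 genes that differ between the lines over 2-fold, Xkrx and Gm10052, lie below it.

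Within the Dchs1 lungs, the 6 high-numbered libraries differed from the 24 low-numbered ones at 10453 of 15412 genes (67.8%), 5231 higher and 5222 lower, by edgeR's quasi-likelihood test. Scgb1a1 took 13.9% to 19.1% of TPM in the high-numbered and 5.55% to 13.6% in the low-numbered lungs, which do not overlap, a log2 difference of 1.02 ± 0.157 (adjusted p 1.05e-06). Mitochondrial genes took 3.04% to 8.44% and 8.20% to 29.6%, where 2 low-numbered lungs exceeded 25%. Sftpc and Ager were both 0.84 higher and Foxf1 fell by 0.34. Many lists moved, beside a median of 0.01 over all genes. MHC class II was higher in 6 of 7 genes (median 0.70), B and plasma cells in 6 of 10 (0.56) and the respiratory chain in 10 of 15 (0.41). Basement membrane genes were lower in 12 of 15 (-0.43) and Hippo genes in 13 of 19 (-0.40). The Fat and Dachsous cadherins were lower in 5 of 6 (-0.88), lymphatic markers in 5 of 6 (-0.54) and sex chromosome genes in 3 of 5 (-0.91). The smallest p-values belonged to Uhmk1 (-3.51 ± 0.161) and Rnf141 (-1.71 ± 0.0798), and Mob1a, a cofactor of the Hippo kinases, was at -2.61 ± 0.127. Nothing in the labels explains the runs of numbers, and their part in these differences was not tested.

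**Figure D5:**
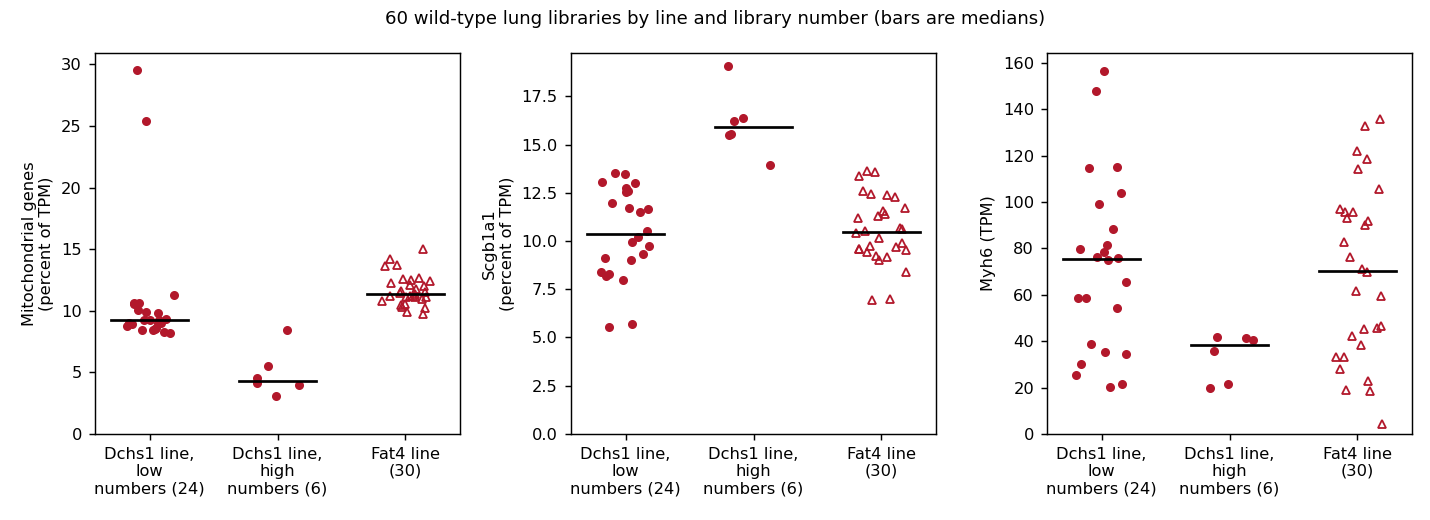
Percent of TPM in mitochondrial genes, percent of TPM in Scgb1a1, and TPM of Myh6 in the 60 wild-type lungs, 1 point per library, with bars at the medians. The 6 high-numbered Dchs1 lungs lie at the top for Scgb1a1, and 2 low-numbered Dchs1 lungs lie above 25% for mitochondrial genes. Myh6 varies widely in the low-numbered Dchs1 and the Fat4 lungs and less in the high-numbered ones (19.8 to 41.6 TPM).

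The lung calls were recomputed within these runs. With only low-numbered Dchs1 libraries the 2-fold rule held for 1809 and 696 genes, and with only high-numbered ones for 1603 and 527, of which 1583 and 515 were shared with the full set. Among named genes, Efnb2, Vwf, Itga8, Pdgfra, Jchain, Apoa2, Lox, Lama3, Tead4, Acaa2, Hadha and Ccl21b lost their call with the high-numbered libraries alone, and no called gene reversed.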

How the data were processed

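Messenger RNA was sequenced as single-end, strand-specific libraries, per the labels' protocols, whose read lengths conflict. For upstream steps, bcl2fastq 2.17, FastQC and GRCm38 appear in the submitters' processing notes. Which aligner and counter were used is not stated there. For each line the authors deposited estimated counts, in which 15.51% and 15.72% of wild-type values were not whole, so reads were divided among genes, and values of near-identical copies are uncertain. The authors also deposited TPM, which keep no depth. Each table listed 24475 identifiers, of which 24375 matched a RefSeq symbol of GRCm38.p6 and 100 did not.

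Estimated counts were rounded and fitted per line with edgeR 4.0.16 (R 4.3.3): TMM scaling, filterByExpr (minimum count 10, minimum total 15), 1 mean per tissue, quasi-likelihood F tests, threshold tests at 2-fold and Benjamini-Hochberg adjustment over every gene in the fit, called at 0.05. Each SE is that of a log2 difference. The filter worked by tissue, so a gene could be tested through its counts in 1 tissue alone, lung included. Late against early libraries and the line by tissue interaction were fitted alike. Alternatives used DESeq2 1.42.0, limma 3.58.1 on log2(TPM + 1) and log2(TPM + 0.1), other scalings, filters, tissues and libraries. The fits were tested on simulated counts in which all tissues had the same means except for a small set of changed genes. TMM's assumption held there by design, so that test cannot speak to the choice of scaling.

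The members and the 48 gene lists (462 of 465 genes matched an identifier) were chosen with earlier results of these data known. Genes were named by a rule: the 4 markers, the 20 largest excesses, the 12 largest deficits, the 10 highest, the 8 most variable and the 8 that differ most between the lines, the 6 smallest p-values of late against early, and the extremes of each list. Others named beside them were chosen after their values were seen, among them Abca3, Hc, Cyp2f2, Foxa2, Hopx, Yap1, Myh6, Bpifa1, Scgb3a2 and Cpt1a.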

Additional observations from a re-analysis of the deposited data

Results flagged for a closer look

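Of all genes, 2 differed between the lines in lung against the mean of the other tissues by more than 2-fold in edgeR's test of the interaction. Xkrx, a gene of the XK family, was 4.22 ± 0.506 (SE) above the mean of the other tissues in the Dchs1 line and -0.84 ± 0.408 from it in the Fat4 line, a line difference of -5.03 ± 0.744 on the log2 scale (adjusted p 5.22e-05). High levels occurred in 3 Dchs1 lungs, and the test was not repeated without these 3: 2 low-numbered libraries had 2180 and 575 TPM and 1 high-numbered library 94 TPM, while the lung median was 2.52 TPM, against 2.47 TPM in the Fat4 line, whose highest lung had 12 TPM. Among livers, 1 Dchs1 and 3 Fat4 libraries were above 10 TPM, up to 205 and 94.9 TPM. In the Fat4 line the medians of heart, kidney and liver were 0.658, 0.708 and 0.228 TPM. Each lay below the lung median, although the fitted difference from their mean was -0.84.

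Gm10052, a predicted gene, was 1.82 ± 0.19 above the mean of the other tissues in the Dchs1 line and -1.46 ± 0.228 from it in the Fat4 line, a difference of -3.26 ± 0.307 (adjusted p 1.14e-09). All 24 low-numbered Dchs1 lungs had 107 to 190 TPM, 5 of the 6 high-numbered ones were above 10 TPM, up to 125 TPM, and Fat4 lungs had a median of 13.3 and a highest level of 83.2 TPM. In heart, kidney and liver the highest library of either line had 41.3 TPM. The lowest levels were close to nothing: 3.53e-13 TPM in a high-numbered Dchs1 lung, 1.47e-09 TPM in a Fat4 lung and 1.5e-22 TPM in a high-numbered Dchs1 kidney. Whether the division of reads among similar genes had a part in this line difference was not tested.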

How the results depend on the processing

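No paired analysis was possible because no library number is shared between tissues, so no replicate block could be fitted. Of 312 named gene results, 263 kept their side of the threshold with library totals and 308 with DESeq2. With limma, 242 of 296 did on log2(TPM + 1) and 241 of 296 on log2(TPM + 0.1). No named gene called by the 2-fold rule reversed under any alternative that tested it. A gene called neither way could not count as reversed, though its sign may differ between the scales, as for Yap1. With library totals 13295 and 1977 genes were higher and lower than the mean for the Dchs1 line, 13243 and 2073 for the Fat4 line, 13046 and 1855 in both, and 4190 and 141 by the 2-fold rule. On log2(TPM + 0.1) these counts were 12971, 2045, 13011, 2104, 12799, 1974, 4835 and 86, and on log2(TPM + 1) 12746, 2300, 12780, 2382, 12575, 2230, 4088 and 64. The median of all genes moved by 1.14 to 1.35 under these 3 settings, of which library totals change the scaling alone. Without heart the 2-fold rule held for 2796 and 1584 genes, having 4 contrasts to pass and not 6. A 1.5-fold threshold gave 1171 lower genes, and a 4-fold one 950 higher and 178 lower. The count of genes that differ between the lines was 2, and 9 with DESeq2, 5 with the other tissues pooled, 5 without kidney, 4 without liver, 41 with high-numbered Dchs1 libraries only and 2873 by a test of no difference; the cause was not tested. Pooling the other tissues gives no value for the 2-fold rule. All other counts stayed within 1.5 times the main one. TPM keep no depth, and genes with few counts limit the precision of large differences.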

Other observations

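Some of the most variable genes among lungs were pairs of near-identical copies whose values traded places between libraries. Rpl30, a ribosomal protein gene, ranged from 2.75 to 1981 TPM in Dchs1 lungs (median 11.9) and Gm12191, a predicted gene, from 0 to 1589 TPM (median 1109). In Fat4 lungs the medians were the other way round, 1081 TPM for Rpl30 and 6.48 TPM for Gm12191. Their sum ran from 1037 to 1981 TPM and from 846 to 1422 TPM, a 1.91-fold and a 1.68-fold range. Amd1 and Amd2, copies of the polyamine enzyme S-adenosylmethionine decarboxylase, summed to 41.8 to 61.3 TPM in Dchs1 and 45.5 to 62.9 TPM in Fat4 lungs, while Amd1 alone had a 58.6-fold and a 62.5-fold range. The pairs were chosen after their values were seen.

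The 10 highest genes of lung, mitochondrial ones apart, took 10.4% to 30.2% of TPM in Dchs1 and 13.3% to 22.6% in Fat4 lungs. Behind Scgb1a1, Sftpc and the globins came Lyz2, Cbr2, the elongation factor Eef1a1 (medians 5725 and 5421 TPM), the ferritin chain Fth1 (4518 and 4281 TPM), Tpt1 (4090 and 3996 TPM) and the actin-binding peptide Tmsb4x (4070 and 4095 TPM). Of these, Tmsb4x was above every other library, where the highest had 410 TPM, and Fth1 was higher in kidney (5762 and 6356 TPM). Lung libraries also held more genes above 1 TPM, 13796 to 14494, than hearts, kidneys and livers, which had 10044 to 12766. TPM is a share, and mitochondrial genes took a median of 9.01% and 11.4% of it in lung. In runs of the other tissues their medians were 15.2% to 62.8%. A cut at 1 TPM is therefore not the same cut in each tissue, and the count was not repeated without mitochondrial genes.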
